A study of Mus musculus with 73 samples.

Results

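The data were described for 9 genes of elastic fibres and microfibrils (*Fbn1*, *Mfap5*, *Mfap2*, *Mfap4*, *Emilin1*, *Emilin2*, *Fbln1*, *Fbln2* and *Eln*) in mouse jejunum. The 9 genes were a fixed list, chosen with earlier results of these data known, out of 21058 genes in the single cell table. All 9 had UMIs (unique molecular identifiers, each 1 captured mRNA) in mesenchymal cells. Single cells came from C57BL/6 male mice aged 3 months by the labels (the study's methods give a younger age), sorted by surface markers such as PDGFRa into plates, and 8 mice, lettered A to H, had wells in the table. Stroma for laser capture microdissection (LCM) came from mice of the same strain, sex and age, with crypt taken from 3 mice and villus bottom, villus center and villus tip from 5 mice. Bulk epithelium came from Lgr5(GFP-ires-DTR/+) mice aged 4 months, 4 collected 48 h after DT (diphtheria toxin) and 4 controls that carried the same allele. That allele places the toxin receptor in every cell with an active *Lgr5* locus, which includes crypt base stem cells of the epithelium, and no stroma of these mice was measured here.

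Elastic fibres give soft tissues their recoil. Cells lay down a scaffold of fibrillin microfibrils, and tropoelastin is deposited on it and cross-linked by lysyl oxidases. Microfibrils also hold latent TGF-beta and BMP complexes, and in the intestine they run through the lamina propria, the connective tissue under the epithelium, and around its vessels. Among the 9 genes, *Fbn1* encodes fibrillin-1, the backbone of the microfibril. *Mfap5* and *Mfap2* encode small glycoproteins that bind fibrillin, and *Mfap4* encodes a microfibril-associated protein of the fibrinogen-related family. *Emilin1* and *Emilin2* encode glycoproteins found where elastin meets microfibrils, *Fbln1* and *Fbln2* encode fibulins, calcium-binding matrix proteins of elastic fibres and basement membranes, and *Eln* encodes tropoelastin.

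Upstream sequence was at hand for 6 of the 9 genes in the RefSeq promoter table of the build GRCm38.p6. The windows of the 3 genes with most UMIs among those 6 are shown, because *Fbn1* and *Fbln2* on one side and *Fbln1* on the other went opposite ways between the mesenchymal classes. Each window holds the 250 bases before a RefSeq transcript start, written 5′ to 3′ on the gene's strand. They lie at chr2:125506439-125506688 on the minus strand for *Fbn1*, at chr6:91212514-91212763 on the plus strand for *Fbln2* and at chr15:85205699-85205948 on the plus strand for *Fbln1*. Capitals mark matches, on either strand, to 5 motifs searched: the GC box GGGCGG, the TATA box TATAAA, the E-box CACGTG, the TEAD factor motif GGAATG and the AP-1 motif TGANTCA.
Fbn1: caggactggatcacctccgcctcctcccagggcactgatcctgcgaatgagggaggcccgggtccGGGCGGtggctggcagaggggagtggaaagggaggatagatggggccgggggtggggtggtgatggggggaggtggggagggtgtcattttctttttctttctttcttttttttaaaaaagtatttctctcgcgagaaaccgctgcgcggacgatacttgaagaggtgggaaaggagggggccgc
Fbln2: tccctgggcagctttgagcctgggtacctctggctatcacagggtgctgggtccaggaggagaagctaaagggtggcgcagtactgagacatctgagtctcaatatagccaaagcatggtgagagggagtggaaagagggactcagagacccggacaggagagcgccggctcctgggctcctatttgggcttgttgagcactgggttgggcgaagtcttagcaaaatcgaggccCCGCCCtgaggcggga
Fbln1: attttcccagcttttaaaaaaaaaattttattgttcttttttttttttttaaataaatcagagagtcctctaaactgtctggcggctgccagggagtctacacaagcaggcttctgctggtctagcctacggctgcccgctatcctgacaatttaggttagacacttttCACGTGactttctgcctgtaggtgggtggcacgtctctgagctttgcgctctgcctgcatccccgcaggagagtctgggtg
The *Fbn1* and *Fbln2* windows each held 1 GGGCGG match, on the plus and minus sense of the printed sequence respectively, and GGGCGG occurred in 32.7% of the 32851 promoter windows of the table. The *Fbln1* window held 1 CACGTG, a motif present in 6.02% of windows, and no GGGCGG. A second *Fbln1* window, 59 bases downstream, held both. None of these 3 windows held the TATA box (12.4% of windows), the TEAD factor motif (12.6%) or the AP-1 motif (6.75%). GC content was 59.2% for *Fbn1*, 58.8% for *Fbln2* and 46.4% for *Fbln1*. A match is a stretch of letters and not a mapped binding site.

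In the GENCODE M21 annotation of GRCm38, *Fbn1* lies at chr2:125300594-125507993 (minus strand), *Mfap5* at chr6:122505845-122529290 (plus), *Mfap2* at chr4:141010418-141015984 (plus) and *Mfap4* at chr11:61485431-61488900 (plus). *Emilin1* lies at chr5:30913402-30921277 (plus), *Emilin2* at chr17:71252172-71311978 (minus), *Fbln1* at chr15:85205949-85286535 (plus), *Fbln2* at chr6:91212455-91272540 (plus) and *Eln* at chr5:134702593-134747323 (minus). The printed *Fbn1* and *Fbln2* windows lie inside these gene models, before a RefSeq start further in. On the opposite strand the annotation places Gm9913 at *Fbn1*, *Mapk7* at *Mfap4*, Gm26561 at *Emilin2* and Gm30003 at *Eln*. Strand-specific settings were stated by the study's methods for the single cell and LCM counting.

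Of 12346 wells mapped to a sample, 2347 had 400 to 8000 UMIs and at least 250 genes. Of these, 325 wells had UMIs of at least 2 of *Pdgfra*, *Dcn*, *Lum*, *Col1a1*, *Col1a2* and *Col3a1* and are called mesenchymal. They were split by the gene with more UMIs into 51 C4b wells and 100 Igfbp6 wells, and 174 wells had equal numbers of both, of which 7 had any. *C4b* encodes a complement protein and *Igfbp6* a binding protein of insulin-like growth factors. Median depth was 1303 UMIs in C4b wells, 1343 in Igfbp6 wells and 771.5 in wells with neither. In other fibroblast markers the classes also stood apart, but the lists were chosen with earlier results of these data known. The study names *Grem1*, *Sfrp1* and *Ly6a* as markers of cell groups from these same cells. The values are thus a description and no independent check of the classes. The summed level of 8 genes that include *Pi16*, *Cd248* and *Ly6a* was 727 and 584 UMIs per 1e5 in the Igfbp6 wells of mice A and G, against 154 and 202 in the C4b wells, where *Pi16* and *Dpp4* were at 0. The summed level of *Grem1*, *C3*, *Fzd1*, *Sfrp1* and *Cxcl12* was 628 and 958 in the C4b wells and 408 and 331 in the Igfbp6 wells.

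The wells were unevenly spread over mice and plates. Mouse G gave 36 C4b and 81 Igfbp6 wells and mouse A gave 11 and 15. The other 6 mice together gave 4 wells of each class, so the classes were compared in mice A and G only, 2 sums of UMIs against 2. A single plate of mouse G held 168 of the 325 wells, including 34 C4b and 70 Igfbp6 wells. In mouse A, 9 of 11 C4b wells and 10 of 15 Igfbp6 wells came from gates sorted to hold pairs of attached cells. Plates use the same 384 well barcodes, so a barcode names a cell only within its plate.

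The 9 genes were found in mesenchymal wells and, *Fbln1* apart, hardly in epithelial or immune wells. Another 276 wells, of none of these kinds, were not read. Epithelial and immune wells here are wells with at least 2 markers of their kind and no UMI of the 6 mesenchymal genes. The contrast with mesenchymal wells was thus partly set by how the wells were chosen. Mice B and C gave 55 and 85 of the immune wells, but 5 and 0 of the mesenchymal wells. At least 1 UMI of any of the 9 was found in 269 of 325 mesenchymal wells (82.8%), with a median of 2 and a maximum of 8 genes per well. Of the 141 immune wells, with a median depth of 732 UMIs, 0 had a UMI of any of them, which allows a share of up to 2.13% of wells. In the 1605 epithelial wells, at a median of 1690 UMIs, *Fbn1* and *Emilin1* had a UMI in 2 wells each, *Mfap4*, *Emilin2*, *Fbln2* and *Eln* in 1 well each, and *Mfap5* and *Mfap2* in 0. *Fbln1* was found in 246 epithelial wells (15.3%). Intervals and limits here cover counting error only.

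**Figure D1:**
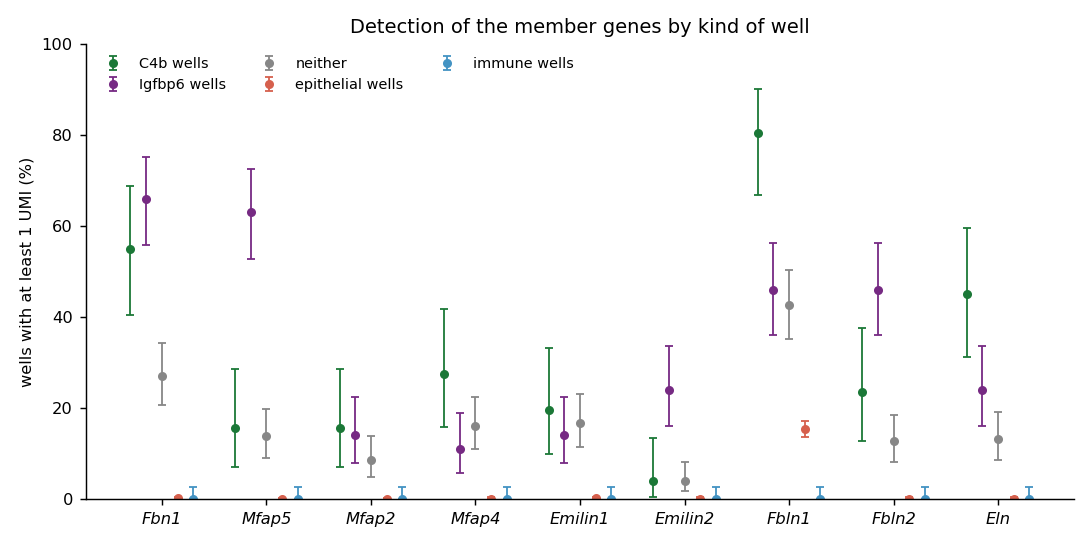
Share of wells with at least 1 UMI of each gene (%), with exact binomial 95% intervals, in the mesenchymal classes and in epithelial and immune wells. *Fbln1* is the only gene above 1% in epithelial wells (15.3%), and the classes of mesenchymal wells differ in depth, with medians of 1303, 1343 and 771.5 UMIs.

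The summed level of the 9 genes overlapped between the classes, and its makeup differed. The genes summed to 400 and 625 UMIs per 1e5 in the C4b wells of mice A and G, and to 507 and 564 in the Igfbp6 wells. *Fbln1* made up 47.7% and 51.7% of these UMIs in C4b wells but 21.7% and 13.2% in Igfbp6 wells. *Fbn1* made up 6.15% and 15.7% in C4b wells and 22.8% and 30.6% in Igfbp6 wells. *Mfap5* made up 0% and 4.57% in C4b wells and 28.3% and 23.2% in Igfbp6 wells. Each UMI is counted from the 3′ end of a transcript, so these shares do not scale with gene length.

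*Fbn1*, the microfibril backbone, was higher in the Igfbp6 wells of both mice. Its level was 24.6 UMIs per 1e5 (4 UMIs) in the C4b wells of mouse A and 98.2 (55 UMIs) in those of mouse G. In the Igfbp6 wells it was 116 (21 UMIs) and 173 (222 UMIs). The classes did not overlap, although the C4b wells of mouse G and the Igfbp6 wells of mouse A lay close, with exact Poisson 95% intervals of 74.0 to 128 and 71.6 to 177. The fitted log2 fold change was 0.87 (95% interval -0.26 to 2.00, adjusted p = 0.915, edgeR quasi-likelihood test), which did not pass the threshold of 0.05. *Fbn1* had a UMI in 28 of 51 C4b wells, 66 of 100 Igfbp6 wells and 47 of 174 wells with neither. After thinning of every well to 400 UMIs the expected shares were 27.3% and 39.1% in the C4b and Igfbp6 wells. Of the 9 genes, *Fbn1* was the 1 whose direction turned when mice with fewer than 5 wells of a class entered and 1 mouse was left out, with log2 fold changes of -0.80 to 0.32. Without the doublet gates the log2 fold change was 0.01, but the C4b sum of mouse A was absent from that fit. Mouse A kept 2 C4b wells there (1 UMI, 45.9 UMIs per 1e5), under the 5 wells a sum needed. Its 5 Igfbp6 wells (3 UMIs, 56.5 per 1e5) stayed in, so C4b wells of mouse G alone were set against Igfbp6 wells of both mice.

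*Mfap5*, which encodes a fibrillin-binding glycoprotein, had the largest positive difference of the 9. Its level was 0 (0 of 16231 UMIs, which allows up to 18.5 per 1e5) in the C4b wells of mouse A and 28.6 (16 UMIs) in those of mouse G. In the Igfbp6 wells it was 143 (26 UMIs) and 131 (168 UMIs). Both Igfbp6 values stood above both C4b values, and their Poisson intervals (93.6 to 210 and 112 to 152) did not reach that of the C4b wells of mouse G (16.3 to 46.4). The log2 fold change was 2.55 (95% interval 1.18 to 3.92, p = 0.00151, adjusted p = 0.365, edgeR). With the mouse as a block it was 2.60 (adjusted p = 0.000199, edgeR), past the threshold, though both fits lean on a spread shared over genes. Detection went the same way, with a UMI in 8 of 51 C4b wells and 63 of 100 Igfbp6 wells, and expected shares of 7.51% and 33.2% at 400 UMIs. Within the largest plate alone its level was 30.6 UMIs per 1e5 in C4b and 130 in Igfbp6 wells.

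*Mfap5* was often found in the same wells as *Fbn1*. Of the 66 Igfbp6 wells with *Fbn1*, 51 (77.3%) also had *Mfap5*, against 12 of the 34 Igfbp6 wells without *Fbn1* (35.3%). *Fbln2* showed the same, in 38 of 66 (57.6%) and 8 of 34 (23.5%). In C4b wells *Mfap5* was in 5 of 28 wells with *Fbn1* and 3 of 23 without. Wells with *Fbn1* were also deeper, with medians of 1511 and 1110 UMIs in the Igfbp6 wells with and without it, and the part of depth in this was not tested.

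The other microfibril-associated genes were low and went the other way or overlapped. *Mfap2*, which like *Mfap5* encodes a fibrillin-binding glycoprotein, was at 12.3 UMIs per 1e5 (2 UMIs) and 21.4 (12 UMIs) in the C4b wells of mice A and G and at 0 and 14.0 (18 UMIs) in the Igfbp6 wells. It was the only member whose classes overlapped, with a log2 fold change of -1.05 (95% interval -3.28 to 1.17, adjusted p = 1.00, edgeR). *Mfap4* was at 61.6 (10 UMIs) and 30.3 (17 UMIs) in C4b wells and at 0 (up to 16.5 per 1e5 allowed) and 20.2 (26 UMIs) in Igfbp6 wells. Its classes did not overlap, with a log2 fold change of -1.75 (95% interval -3.56 to 0.06, adjusted p = 0.848, edgeR). Within the largest plate of mouse G *Mfap4* was at 23.0 UMIs per 1e5 in C4b and 24.1 in Igfbp6 wells. On the other plates of that mouse it was at 134 in 2 C4b wells, from 5 UMIs of 1 well, and at 0 in 11 Igfbp6 wells.

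The EMILIN genes, whose products sit at the interface of elastin and microfibrils, went in opposite directions. *Emilin1* was at 49.3 UMIs per 1e5 (8 UMIs) and 17.8 (10 UMIs) in the C4b wells of mice A and G and at 16.5 (3 UMIs) and 16.3 (21 UMIs) in the Igfbp6 wells. In mouse G the classes were thus almost equal, and the log2 fold change of -1.05 had a 95% interval of -2.75 to 0.66 (adjusted p = 0.994, edgeR). *Emilin2* was at 0 and 7.14 (4 UMIs) in C4b wells and at 38.6 (7 UMIs) and 24.1 (31 UMIs) in Igfbp6 wells. Its classes did not overlap and its log2 fold change was 2.26 (95% interval 0.06 to 4.47, p = 0.0453, adjusted p = 0.848, edgeR). A UMI of *Emilin2* was found in 2 of 51 C4b wells, 24 of 100 Igfbp6 wells and 7 of 174 wells with neither.

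*Fbln1*, encoding fibulin-1, was the member with most UMIs and the one with the largest negative log2 fold change. Its level was 191 UMIs per 1e5 (31 UMIs) and 323 (181 UMIs) in the C4b wells of mice A and G, and 110.2 (20 UMIs) and 74.7 (96 UMIs) in the Igfbp6 wells. Both C4b values stood above both Igfbp6 values, with overlapping Poisson intervals in mouse A (130 to 271 and 67.3 to 170.2) and separate ones in mouse G (278 to 374 and 60.5 to 91.2). The log2 fold change was -1.78 (95% interval -2.73 to -0.82, p = 0.00146, adjusted p = 0.365, edgeR). With the mouse as a block it was -1.80 (adjusted p = 0.00305, edgeR), past the threshold, under the same limit as for *Mfap5*. *Fbln1* had a UMI in 41 of 51 C4b wells, 46 of 100 Igfbp6 wells and 74 of 174 wells with neither, and the expected shares at 400 UMIs were 57.8%, 21.7% and 30.8%.

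*Fbln2*, encoding fibulin-2, went the opposite way to *Fbln1* in these wells. It was at 6.16 UMIs per 1e5 (1 UMI) and 42.8 (24 UMIs) in the C4b wells of mice A and G and at 44.1 (8 UMIs) and 69.2 (89 UMIs) in the Igfbp6 wells. The C4b value of mouse G and the Igfbp6 value of mouse A nearly touched, and the log2 fold change of 0.77 (95% interval -0.63 to 2.18, adjusted p = 0.994, edgeR) did not pass the threshold. *Eln*, encoding tropoelastin, was at 55.4 (9 UMIs) and 55.3 (31 UMIs) in C4b wells and at 38.6 (7 UMIs) and 42.0 (54 UMIs) in Igfbp6 wells. The *Eln* classes were separate but close, with a log2 fold change of -0.64 (95% interval -1.73 to 0.44, adjusted p = 0.994, edgeR). *Eln* UMIs were uneven between cells, since 1 Igfbp6 well held 22 of the 62 UMIs of that class.

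**Figure D2:**
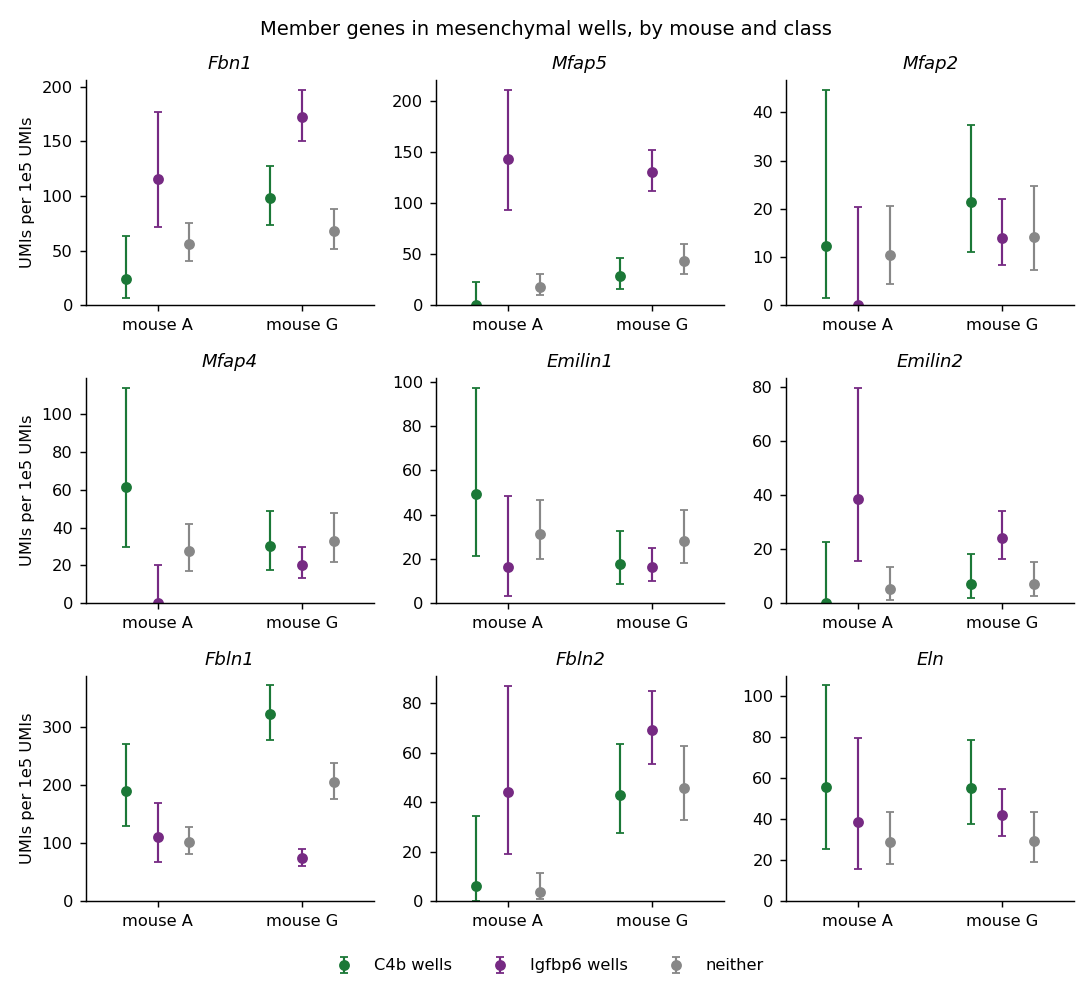
Level of each gene (UMIs per 1e5 UMIs) in the C4b wells, Igfbp6 wells and wells with neither of mice A and G, with exact Poisson 95% intervals. *Mfap5* stands at 143 and 131 in Igfbp6 wells against 0 and 28.6 in C4b wells, and *Fbln1* at 110.2 and 74.7 against 191 and 323.

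Across the 9 genes, 0 passed an adjusted p of 0.05 in the edgeR test of class, and 3 of them (*Mfap5*, *Fbln1* and *Emilin2*) had an unadjusted p under 0.05, as did 169 (5.21%) of the 3243 genes tested. In DESeq2 the adjusted p was 0.0505 for *Mfap5* and 0.0879 for *Fbln1*. Over all 3243 genes tested 0.123% were called, 4 genes that were all lower in Igfbp6 wells (*C4a*, *Tmem176b*, *Sfrp1* and *Apoe*), and 0% were called higher. With the mouse as a block, 23 genes were called, 8 higher and 15 lower, among them *Mfap5* and *Fbln1*. Both fits have 2 sums against 2, so their p-values and intervals lean on a spread shared over genes. The term for the mouse adds to this. Of the 9 genes, 4 had both Igfbp6 values above both C4b values, a pattern held by 24.3% of all genes tested, and another 4 had both below, a pattern held by 11.2%. The study names *Mfap5*, *Emilin2* and *Fbn1* as elevated in a cell group from these same cells. The 9 genes were chosen with such results known, so these shares are a description of the list and no independent result about it. The median log2 fold change of the 9 was -0.64, against 0.12 over all genes. In simulated data of this design, the test called 2 of 100 genes given a log2 change of 2, and 31 of 100 given one of 4. The simulation gave all genes a single assumed spread and the mice no difference beyond depth, so its recovery holds for that setting.

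**Figure D3:**
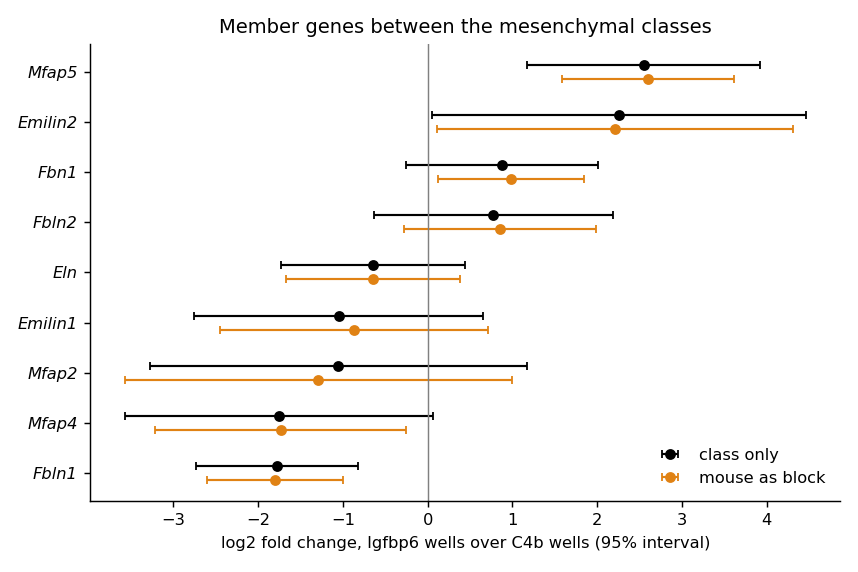
Log2 fold change of each gene, Igfbp6 over C4b wells, with 95% intervals, in the edgeR fit of class alone and with the mouse as a block. *Mfap5* (2.55) and *Fbln1* (-1.78) lie furthest from 0 relative to their intervals in both fits.

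Markers of other cells were low in both classes but not equal. Endothelial markers had 0 UMIs in C4b wells and 3 in Igfbp6 wells, and the 5 glial and neuronal markers were at 0 in both. The 4 mesothelial markers (*Msln*, *Upk3b*, *Lrrn4* and *Wt1*) had 0 UMIs in C4b wells and 29 in Igfbp6 wells, of which 13 were in mouse G and 0 in mouse A. Smooth muscle markers had 11 UMIs in C4b wells, 9 of them in mouse A, where *Mfap4* and *Emilin1* were highest, and 7 in Igfbp6 wells. In C4b wells *Tagln*, *Actg2*, *Des* and *Cnn1* were at 0. Pericyte markers had 17 UMIs in C4b wells (49.3 and 10.7 per 1e5 in mice A and G) and 7 in Igfbp6 wells (38.6 and 0). The part of these cells in the differences was not tested. The 6 mesenchymal genes that chose the wells summed to 3912 and 5813 UMIs per 1e5 in the C4b wells of mice A and G. In the Igfbp6 wells they summed to 3064 and 2349, and what part this has in the differences was not tested either.

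In wells with neither *C4b* nor *Igfbp6* in excess, *Fbn1*, *Fbln1*, *Mfap5* and *Eln* lay between the classes of the same mouse or below both. In mice A and G, *Fbn1* was at 56.2 and 68.4 UMIs per 1e5, *Fbln1* at 103 and 206, *Mfap5* at 18.3 and 43.6 and *Eln* at 28.7 and 29.5. By contrast, *Emilin1* (31.4 and 28.3) and *Mfap4* (27.4 and 33.0) lay between the classes in mouse A and above both in mouse G. These wells were shallower. They held more smooth muscle UMIs (190.8 and 73.1 per 1e5 in mice A and G), telocyte marker UMIs (163 and 48.3) and pericyte UMIs (71.9 and 75.4) than either class. What part this has in the levels was not tested.

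The genes that build, stabilise and turn over elastic fibres were also read in these wells. Of 31 such genes in 5 lists, 17 passed the filter on low counts. Of these, 0 passed an adjusted p of 0.05 in edgeR, 1 had an unadjusted p under 0.05, and their median log2 fold change was -0.48 against 0.12 over all genes tested. The gene with most UMIs in each list is described here with its values in C4b wells and Igfbp6 wells, given as mouse A and then mouse G. *Loxl1*, a lysyl oxidase that cross-links elastin, was at 43.1 and 39.3 UMIs per 1e5 and at 55.1 and 55.2 (log2 fold change 0.23, adjusted p = 1.00, edgeR). *Efemp1*, encoding fibulin-3, was at 43.1 and 14.3 and at 60.6 and 45.9 (0.88, adjusted p = 0.994, edgeR). Neither gene differed between classes beyond the fit's error.

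*Ltbp4*, which encodes a latent TGF-beta binding protein of the microfibril, was at 86.3 and 180.3 UMIs per 1e5 in C4b wells and at 66.1 and 139 in Igfbp6 wells (log2 fold change -0.56, adjusted p = 0.994, edgeR). *Tgfb3*, a ligand held in such complexes, had 38 UMIs in all mesenchymal wells and a log2 fold change of -1.91 (adjusted p = 0.961, edgeR). *Mmp2*, encoding a gelatinase that also cleaves elastin, was at 98.6 and 107 in C4b wells and at 33.1 and 65.3 in Igfbp6 wells. It was the 1 gene of the 17 with an unadjusted p under 0.05 (log2 fold change -1.14, p = 0.025, adjusted p = 0.848, edgeR). Of 11 other collagens, 10 were tested, all 10 had negative log2 fold changes (median -0.68), as had 45.3% of all genes tested, and 0 passed the threshold. *Col6a1*, a chain of the beaded filament collagen VI and the collagen of that list with most UMIs, had a log2 fold change of -0.13 (adjusted p = 1.00, edgeR).

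LCM stroma showed where along the crypt-villus axis the transcripts lay, in ppm (TPM rescaled within each sample) after removal of enterocyte genes, as means over the sections of a mouse. *Emilin2* was not analysed in these samples. In a bulk section, fewer cells of a type and less RNA per cell cannot be told apart. Of the other 8 genes, 7 passed the filter of a zone mean above 5 ppm, and 0 passed an adjusted p of 0.05 in limma between any of 3 pairs of zones. The same was true of all 13535 genes tested, with 0% called in each comparison and 441, 620 and 205 genes at an unadjusted p under 0.05 for villus tip over crypt, villus tip over bottom and villus bottom over crypt. These 3 comparisons share their zones.

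*Fbln2* had the largest difference between villus tip and crypt of the 7 genes tested. In crypt it was at 2.92, 30.7 and 13.6 ppm in mice 1 to 3, and in villus tip at 1.52, 0, 2.59, 1.17 and 0.586 ppm in mice 1 to 5. The crypt value of mouse 2 was the mean of 2 sections at 61.4 and 0 ppm. Every crypt value stood above every villus tip value, a pattern of the same direction held by 1.8% of all genes tested. The difference of villus tip and crypt was -2.62 on the log2(ppm + 1) scale (95% interval -4.74 to -0.49, p = 0.0178, adjusted p = 0.991, limma). The two-sided exact permutation test gave p = 0.0357, the smallest that 3 against 5 values allow, but it treats the values as independent although mice 1 to 3 gave both zones. A paired exact permutation test over those 3 mice, chosen like the next value after the data were seen, gave p = 0.25, the smallest that 3 pairs allow, with the tip lower in all 3. Without the section of mouse 2 at 61.4 ppm its crypt value was 0, crypt and tip overlapped, and the difference was -0.95 (exact permutation p = 0.393). In villus bottom *Fbln2* was at 0.271, 4.501, 0.372, 1.5 and 11.1 ppm, and in villus center it was above 1 ppm in mouse 1 alone, at 12.9 ppm. Villus bottom lay between crypt and tip, and villus bottom and crypt overlapped (exact permutation p = 0.143).

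*Fbn1* was highest in villus bottom and lowest at the tip. It was at 2.59, 11.7, 13.6, 1.80 and 9.74 ppm in the villus bottom of mice 1 to 5, and at 0.0114, 0.916, 1.30, 1.94 and 5.87 ppm in the villus tip. The zones overlapped, and the tip was lower in 4 of 5 mice, by -1.56 on the log2(ppm + 1) scale (95% interval -3.20 to 0.08, adjusted p = 0.990, limma). The unpaired exact permutation test gave p = 0.0556, with 0.00794 as the smallest possible for 5 against 5, and the paired one over the same 5 mice gave p = 0.125, with 0.0625 as its smallest. Crypt was at 3.61, 1.56 and 5.54 ppm and villus center at 8.05, 1.24, 3.77, 0.451 and 0.678 ppm. Ordered by mean log2(ppm + 1), the zones ran from villus bottom (2.86 ± 1.11, SD, n = 5) over crypt (2.09 ± 0.68, n = 3) and villus center (1.58 ± 1.11, n = 5) to villus tip (1.30 ± 1.01, n = 5). No neighbours in that order differed beyond their spread.

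*Mfap4* and *Eln* shared 1 section with very high values. In the villus bottom *Mfap4* was at 438 ppm in mouse 1 and at 3.16, 6.75, 9.32 and 9.67 ppm in mice 2 to 5. The 2 sections of mouse 1 gave 873 and 2.98 ppm. *Eln* was at 106 ppm in the villus bottom of mouse 1, from 207 and 3.98 ppm in the same 2 sections, and at 6.49, 3.55, 8.44 and 10.9 ppm in the others. Over the 18 mouse and zone values these genes had a Pearson correlation of 0.67, the highest of any pair of members, as a description of values that share their libraries. Apart from the villus bottom of mouse 1, *Eln* ranged from 0.832 to 34.7 ppm and its crypt values (13.7, 22.3 and 34.7 ppm) lay within the range of villus center (9.26 to 24.3) and villus tip (0.832 to 28.6) or just above it.

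*Mfap4* was at 1.67, 27.6 and 19.3 ppm in crypt, at 0 to 8.84 ppm in villus center and at 0.138 to 11.5 ppm in villus tip. The tip minus bottom difference of *Mfap4* was -2.25 (95% interval -4.58 to 0.09, adjusted p = 0.990, limma), and without mouse 1 in either zone the tip was lower by less than 1 unit, at -0.66. *Emilin1* was at 7.99 to 15.1 ppm in villus center. It was at 4.93, 11.4 and 18.4 ppm in crypt, at 6.33, 55.7, 11.2, 25.4 and 12.8 ppm in villus bottom and at 2.15, 26.7, 21.7, 38.6 and 24.8 ppm in villus tip. All 4 zones overlapped, and villus tip and bottom differed by 0.03 on the log2(ppm + 1) scale (95% interval -1.58 to 1.64).

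*Mfap5* and *Fbln1*, the members with the largest positive and negative log2 fold changes between the mesenchymal classes, had no ordered zonation. Neither was called between the classes in the main test. *Mfap5* was at 3.33, 0.853 and 6.26 ppm in crypt, at 0 to 7.21 ppm in villus bottom, at 36.0, 0.114, 0, 4.67 and 6.77 ppm in villus center and at 0.268, 0, 26.0, 6.86 and 3.82 ppm in villus tip. The highest villus center and villus tip values came from different mice, and tip and crypt differed by 0.11 (95% interval -2.35 to 2.57, adjusted p = 1.00, limma). *Fbln1* ranged from 0.552 to 157 ppm in crypt alone (157, 0.552 and 53.1 ppm). It was at 54.3, 17.3, 44.2, 54.2 and 10.1 ppm in villus bottom and at 57.2, 18.6, 118, 92.4 and 30.5 ppm in villus center. The villus center exceeded the bottom in 5 of 5 mice, by 0.77 on the log2(ppm + 1) scale on average (two-sided exact permutation p = 0.27 unpaired, and 0.0625 paired, the smallest that 5 pairs allow). In villus tip *Fbln1* was at 60.4, 6.72, 92.4, 3.44 and 47.8 ppm, within the range of the other zones. *Fbln1* was also found in epithelial wells, and what residual epithelium gave to its LCM values was not tested. *Mfap2* was at 2.97 ppm in 1 crypt sample, at or below 0.289 ppm in every other value and at 0 in the villus tip of all 5 mice.

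**Figure D4:**
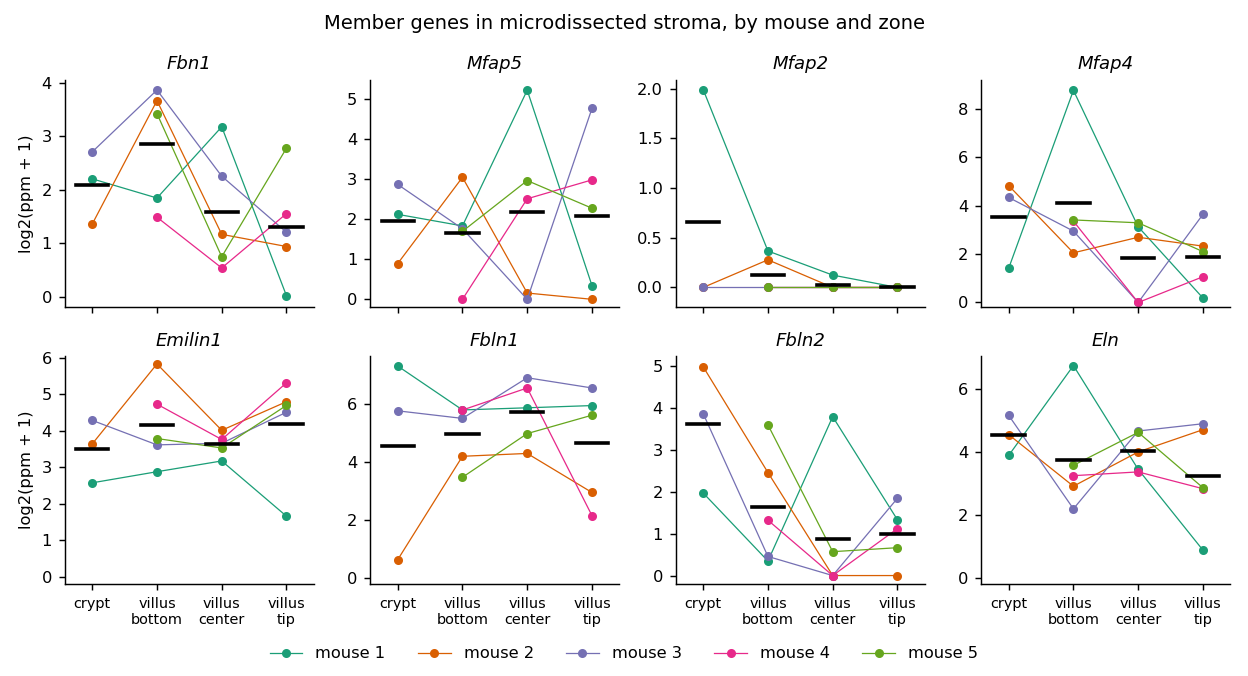
Level of 8 of the genes on the log2(ppm + 1) scale in the 4 LCM zones, 1 line per mouse, with the zone mean as a black bar. *Fbln2* is higher in every crypt value than in any villus tip value, with the crypt of mouse 2 resting on 1 of 2 sections, and single values of mouse 1 stand far above the rest for *Mfap4* and *Eln* in villus bottom.

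The stroma itself varied between samples. The summed level of the 6 mesenchymal genes was 153 to 663 ppm in crypt, 78.2 to 311 ppm in villus bottom, 82.3 to 1683 ppm in villus center and 40.2 to 417 ppm in villus tip. Villus center of mouse 1 stood apart, with smooth muscle markers at 5924 ppm and mesothelial markers at 115 ppm, against at most 1318 and 13.3 ppm in all other values, and it also had the highest *Fbln2*, *Mfap5* and *Fbn1* of its zone. When each value was divided by the mesenchymal sum of its sample, *Fbn1* in villus tip over crypt turned from -0.79 to 0.77. The *Fbln2* difference of villus tip and crypt was negative under the 12 limma settings, from -3.72 to -1.05. Epithelial markers were all among the enterocyte genes removed, but before removal they were at 207 to 2428 TPM over all zones. The 6 mesenchymal genes were at 26.3 to 1104 TPM. The part of the cell makeup of the sections in the levels of the members was not tested.

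The other genes of the pathway gave no calls along the axis. Of the 31 genes, 22 were tested, with 6 higher and 16 lower in villus tip than in crypt and 0 past the threshold in limma. Their median difference was -0.78 on the log2(ppm + 1) scale, against 0.04 over all genes. *Efemp1* had means of 49.9 ± 46.0 ppm (SD, n = 3) in crypt, 218 ± 169 in villus bottom, 110 ± 151 in villus center and 24.2 ± 24.4 in villus tip (n = 5 each). *Ltbp4* was at 19.6 ± 4.08 ppm in crypt and 7.30 ± 7.77 ppm in villus tip. The 5 genes whose LCM levels were most like those of *Fbn1*, by Pearson correlation over the 18 mouse and zone values, were *Cdk7* (0.84), *Abhd10* (0.84), *Clec4n* (0.84), *Ctla2b* (0.82) and *Calcoco1* (0.81). The points share sections and mice, and none of the 5 genes belongs to the lists used here.

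*Fbln1* was the only 1 of the 9 genes found in more than 1% of epithelial wells. In epithelial wells of 7 of 8 mice it was at 8.44 to 13.2 UMIs per 1e5, and in mouse D, with 14 wells, at 0 (up to 18.3 allowed). Immune wells held 0 UMIs of 118862, which allows 2.52 per 1e5. Epithelial wells had by their choice no UMI of the 6 mesenchymal genes. Chosen after the values were seen, a split by *Apoa4*, an apolipoprotein of absorptive enterocytes, gave 11.2 UMIs per 1e5 in 1265 wells with and 2.65 in 340 wells without it. Median depths were 1739 and 1489 UMIs, and the expected shares of wells with *Fbln1* at 400 UMIs were 4.33% and 1.55%. The level in epithelial wells was thus far under the 282 and 77.1 UMIs per 1e5 of the C4b and Igfbp6 wells.

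In bulk epithelium *Fbln1* was the only member past the filter on low counts. Control samples had 318, 130, 497 and 418 UMIs of *Fbln1*, which are 22.0, 17.4, 11.8 and 11.2 UMIs per 1e5. The DT samples had 204, 309, 408 and 204 UMIs, or 17.2, 14.9, 10.8 and 8.98 per 1e5. The groups overlapped as a whole, at 15.6 ± 5.07 UMIs per 1e5 in controls and 12.99 ± 3.75 after DT (SD, n = 4). The study names 2 batches for these samples, a and b, which the labels do not give, and what set them apart was not stated. Within each batch both control values lay above both DT values, in batch a by as little as 17.4 against 17.2 per 1e5. The share of all genes with this pattern was not counted. With batch in the fit, the log2 fold change was -0.31 (95% interval -0.66 to 0.04, p = 0.074, adjusted p = 0.328, edgeR), so *Fbln1* was not among the 0.356% of 8986 genes called. The mesenchymal genes together had 5 to 72 UMIs per sample, at 0.290 to 2.11 per 1e5. The other 8 members had at most 8 UMIs in any sample, in libraries of 748458 to 4210158 UMIs, and were not tested there. Among them *Emilin1* had 18 UMIs in the controls together and 20 after DT, at 0.147 ± 0.1004 and 0.211 ± 0.0307 per 1e5 (SD, n = 4).

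**Figure D5:**
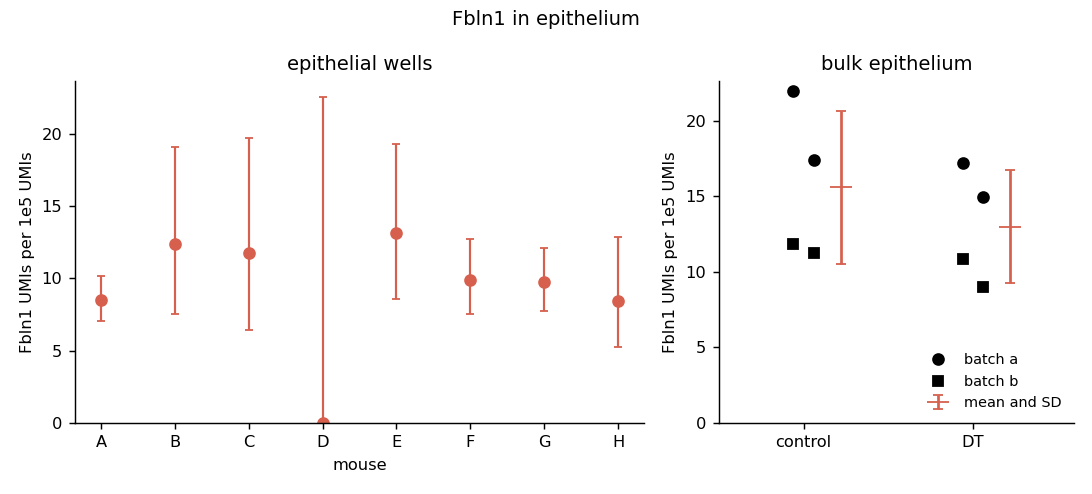
*Fbln1* (UMIs per 1e5 UMIs) in the epithelial wells of mice A to H, with exact Poisson 95% intervals, and in the 8 bulk epithelium samples, with mean and SD per group and marks for the 2 batches. Levels are 8.44 to 13.2 in the wells of 7 mice and 8.98 to 22.0 in bulk, and in bulk the batches do not overlap while the treatments do.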

How the data were processed

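UMI counts per gene were made by the authors with zUMIs on GRCm38, for sorted single cells (MARS-seq) and bulk epithelium (mcSCRBseq), and deposited without normalization. The authors made the TPM values of the LCM samples (SMARTseq) with kallisto and sleuth on coding transcripts, and deposited them per gene, so that their depth is unknown. Base calling used bcl2fastq 2.15.0.4 per the labels. The 9 genes, the marker lists and the tests were chosen with earlier results of these data known.

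Wells were kept at 400 to 8000 UMIs and 250 genes, without the study's subtraction of empty wells, which were not told apart here. No doublet caller was run and wells of doublet gates were kept. The 352 columns of a plate matching no sample were not used. UMIs were summed per mouse and class (at least 5 cells) and compared with edgeR 4.0.16 (TMM, quasi-likelihood, R 4.3.3), over genes above 1e-05 of UMIs and with a UMI in more than 5 cells in a class. For the LCM samples, enterocyte genes were taken from the genes with most UMIs in the control bulk epithelium that together make up 50% of its UMIs. Without ribosomal and mitochondrial genes 420 were left, and the 378 of these with LCM values were removed. The study instead removed a much shorter list, from published enterocyte data. Values were divided by the sum of genes under 1% of a sample, and the sections of a mouse in a zone were averaged. Then log2(ppm + 1) was compared with limma 3.58.1 (trend) for 13535 of 20882 genes. The 104 duplicated names were told apart by identifier. Fold changes of low genes are understated on that scale. LCM samples had 5481 to 17306 genes above 0. Bulk epithelium was compared with edgeR and a batch term. Adjusted p-values are Benjamini-Hochberg over all genes tested. Thinning gives the expected share of wells with a UMI at 400 UMIs, with shallower wells absent by the filter. Alternatives were DESeq2 1.42.0, RLE factors, no filter, other well limits, other added ppm values, mice as blocks, leaving out mice or samples and, for the zones, paired exact tests. Python 3.11.15 was used for the wells and the exact tests. The tests were checked on simulated data.

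Mice A and G each gave both classes. Each LCM mouse gave all villus zones, but crypt came from only some of them, so mice pair the samples in part. The correlation of deviations was 0.08 for the classes, and -0.07 to 0.44 between zones. In bulk epithelium, same-numbered samples had correlations of 0.42 to 0.66. Besides the 9 genes, the text names, for each list, genes past the threshold and the one with most UMIs, and the 5 genes most like *Fbn1*. P-values measure the spread between mice. Only 2 mice entered the class comparison, so its p-values and intervals also lean on a spread shared over genes.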

Additional observations from a re-analysis of the deposited data

Results flagged for a closer look

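Single values stood far from the others of their zone for 5 genes of the LCM samples, by Dixon's test. Chance meets it in about 1 in 20 groups of normally distributed values. These ppm values are not spread that way, with many at or near 0, so that rate does not hold here. Crypt, with 3 mice, had too few values to be tested. Of 25 groups tested, 23 of a gene in an LCM zone and 2 of *Fbln1* in bulk epithelium, 6 had such a value. In villus bottom, mouse 1 had *Mfap4* at 438 ppm (others 3.16 to 9.67) and *Eln* at 106 ppm (others 3.55 to 10.9), both from the same section. In villus center, mouse 1 had *Mfap5* at 36.0 ppm (others 0 to 6.77) and *Fbln2* at 12.9 ppm (others 0 to 0.485), in the sample whose smooth muscle markers were at 5924 ppm. *Mfap2*, which was under the filter on low values, was at 0.0899 ppm there and at 0 in the other 4 mice, so that any value above 0 would have met the test. In villus tip, mouse 3 had *Mfap5* at 26.0 ppm (others 0 to 6.86), from 2 sections at 52.0 and 0 ppm. The part of cell makeup in these values was not tested.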

How the results depend on the processing

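The count of genes called between the classes, 4 in the main test, depended on the settings. It was 18 with RLE factors, 7 with DESeq2, 2 without a filter, 2 with sums of at least 1 cell, 14 with at least 3 of the 6 mesenchymal genes, 17 with a margin of 2 UMIs, 1 without doublet gates and 7 with 200 to 8000 UMIs. It was 0 without the largest plate and 0 to 3 when mice were left out of sums of at least 1 cell, both chosen after the data were seen. With the mouse as a replicate block it was 23. *Mfap5* was positive in 18 of 18 settings (1.2 to 7.62) and past the threshold in 5, at adjusted p from 0.00016 to 1.00. *Fbln1* was negative in 18 of 18 (-2.76 to -1.34) and past it in 4 (0.00305 to 0.999). Without mouse A or G, *Mfap5* was 2.17 and 5.65, *Fbln1* -2.10 and -0.78, and *Mfap4* -0.57 and -4.47, with no test. Without doublet gates *Fbn1* was 0.01, in a fit that held C4b wells of mouse G alone. Without the largest plate mouse G kept 2 C4b wells, too few for a sum, so that fit held C4b wells of mouse A alone. Leaving out 1 mouse moved *Fbn1* from -0.80 to 2.11 over both kinds of sums (-0.80 to 0.32 in sums of at least 1 cell).

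For DT over control, the 32 calls became 143 in DESeq2, 635 without a filter, 1 without batch and 3 with the replicate block. Leaving out 1 sample gave 3 to 41. *Fbln1* was between -0.39 and -0.25 and never called. For LCM, the replicate block gave 0 calls in each comparison, and no filter gave 2 in villus tip over crypt and 2 in villus bottom over crypt of 20223 genes.

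Some LCM differences turned sign. Paired over the mice with both zones (chosen after the data were seen), *Mfap5* was -0.26 for villus tip over crypt and 0.25 for villus bottom over crypt. For villus tip over crypt, *Fbln1* was -0.29 with 10 ppm added and *Mfap5* -0.52 with 0.1 ppm. Divided by the mesenchymal sum, *Fbn1* was 0.77 and *Eln* 0.26. Leaving out 1 mouse gave -1.47 to 1.12 for *Fbln1* and -0.11 to 0.62 for *Mfap5*. For villus tip over bottom, *Fbln1* was 0.18 when divided and *Emilin1* -0.014 with 0.1 ppm. Without 1 mouse the ranges were -0.92 to 0.52 (*Fbln1*), -0.19 to 0.34 (*Emilin1*), -1.30 to 0.84 (*Eln*) and -0.24 to 1.27 (*Mfap5*). For villus bottom over crypt, *Fbln1* was -0.21 with 10 ppm, and *Eln* 0.27 and *Mfap5* 0.78 when divided. Without 1 mouse they were -1.39 to 1.54 (*Fbln1*), -1.17 to 0.14 (*Mfap5*) and -1.64 to 1.75 (*Mfap4*). None of these was called and the causes were not tested. In the class comparison *Emilin2* rested on 4 UMIs in C4b wells.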
